A study of Mus musculus with 12 samples.

Results

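Ddit4l, Stox1, Epm2a and Arap2 are 4 mouse genes whose RNA level changed differently over the first 6 h with sorbitol in embryonic stem cells that did or did not express a reporter of 2-cell-like cells. These genes were chosen by the difference between the sorted fractions in the 0 to 6 h change. The 0 h and 6 h values below therefore describe the choice and are no test of the members. Where calls, ranks or adjusted p-values of the members that compare the 0 h or 6 h libraries are given, they come from the values that made the choice. Nothing is read from them as support. All 4 were found in the counts, as 4 of 55266 genes, and all 4 were among the 19384 genes that were tested, those reaching 10 counts in 2 or more libraries. The name under which they were proposed, early induction in negative cells only, fits the direction of the change but not the level: at each of the 3 times the libraries of tbGFP-positive cells stood above those of tbGFP-negative cells for all 4 genes, and at 6 h the negative level was nearer to the positive level, which was itself lower than at 0 h.

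The libraries came from the mouse embryonic stem cell line E14, carrying the reporter construct 2C::3xtbGFP in all groups. Cells were plated without 2 kinase inhibitors that are used for expansion, were collected after 48 h of culture and had received sorbitol, a sugar alcohol that raises osmolarity, for 0, 6 or 24 h. They were then sorted on the fluorescent protein into tbGFP-positive and tbGFP-negative cells, 50000 cells at a time, which gave 6 groups of 2 libraries, one for each of the 2 fractions at each of the 3 times. The series title names hyperosmotic stress and 2-cell-like cells as its subject. A negative sort after 24 h is made on cells that have had 24 h to switch the reporter on, so the same cells were not followed from 0 to 24 h. Separate cultures for the 2 libraries of a group are not mentioned in the labels, so a p-value reflects the spread from library to library, which may be technical.

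Total counts ran from 2306870 to 7900178 per library, and between 17445 and 26069 genes had counts. The 2 tbGFP-positive libraries at 6 h had the fewest, with 17545 and 17445 genes at total counts of 3581875 and 7832956. The low number of genes thus did not go with a low total in replicate 2. These 2 libraries enter each 6 h value of positive cells and each difference between fractions in the 0 to 6 h change. The part of their low number of genes in those values was not tested. The sort was borne out by 16 markers of 2-cell-like cells fixed as a list, whose summed level was 47091 to 74176 counts per 1000000 (CPM) in the 6 tbGFP-positive libraries. In tbGFP-negative cells the same sum was 21.7 and 51.3 CPM at the start, 93.9 and 79.2 CPM after 6 h and 1185 and 1135 CPM after 24 h. Markers of naive embryonic stem cells (10 genes) summed to 6501 to 9505 CPM over all libraries, and none was without counts in any group. Dppa5a alone held 5485 of a mean of 9117 CPM in negative cells at 6 h. Single markers were called in edgeR's test. Between 0 and 6 h Klf2 was lower (log2 -2.11) and Dppa5a higher (0.56) in negative cells, and Nanog lower (-1.75) and Klf4 higher (0.86) in positive cells. At 24 h Tfcp2l1 was lower in positive than in negative cells (-0.68). Markers of primitive endoderm (8 genes) summed to 9 to 47.2 CPM except in negative cells at 6 h, where they stood at 64.1 and 68.2 CPM after 14.2 and 17.6 CPM at 0 h (1 of 4 tested was called, and 0 without any 1 of the negative libraries or of the positive ones at 24 h). The gene called was Cubn, at 13.3 ± 2.92 CPM at 0 h and 57.7 ± 0.991 CPM at 6 h in negative cells (SD, n = 2). The mean sums of the 8 genes there were 15.9 and 66.1 CPM. In negative cells 5 of the 8 had no counts at 0 h and 1 had none at 6 h. The part of these markers in the members' 6 h levels was not tested. Markers of trophoblast (10 genes) summed to 12 to 55.8 CPM and of fibroblasts (8 genes) to 3.41 to 27.5 CPM.

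The 4 genes belong to different cellular systems. Ddit4l, also called Redd2, is a stress-responsive inhibitor of signalling by mTORC1, the kinase complex that couples growth to nutrients and stress. Its paralog Ddit4 (Redd1) does the same and is switched on by several stresses. Stox1 encodes storkhead box 1, a winged-helix DNA-binding protein whose human variants have been linked to pre-eclampsia. Epm2a encodes laforin, a phosphatase that binds and dephosphorylates glycogen, and in humans its loss, or that of its partner ligase malin (Nhlrc1), causes Lafora disease. Arap2 encodes a GTPase-activating protein for ARF6, a small GTPase of membrane traffic, and it acts on focal adhesions. The 2-cell-like state is a rare, reversible state of embryonic stem cells in which genes of the 2-cell embryo, among them the Zscan4 cluster and Dux (Duxf3), are active.

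On the build GRCm38, Ddit4l lay on the plus strand of chromosome 3 (137621612 to 137628333), Stox1 on the minus strand of chromosome 10 (62659043 to 62726128), Epm2a on the plus strand of chromosome 10 (11343404 to 11459644) and Arap2 on the minus strand of chromosome 5 (62602445 to 62766159). Their promoters are shown to let the sequences of the 4 genes, which were chosen by the same difference, be compared. Each is the RefSeq window (GRCm38.p6) of 300 bases, 250 before and 50 after the annotated start, written 5′ to 3′ on the gene's strand, and all 4 genes matched an entry. Capitals mark the GC box GGGCGG on either strand, the letters TATAAA in Ddit4l and the AP-1 site TGANTCA in Arap2. The windows are chr3:137623422-137623721 (plus) for Ddit4l, chr10:62726045-62726344 (minus) for Stox1, chr10:11343195-11343494 (plus) for Epm2a and chr5:62766128-62766427 (minus) for Arap2.
Ddit4l: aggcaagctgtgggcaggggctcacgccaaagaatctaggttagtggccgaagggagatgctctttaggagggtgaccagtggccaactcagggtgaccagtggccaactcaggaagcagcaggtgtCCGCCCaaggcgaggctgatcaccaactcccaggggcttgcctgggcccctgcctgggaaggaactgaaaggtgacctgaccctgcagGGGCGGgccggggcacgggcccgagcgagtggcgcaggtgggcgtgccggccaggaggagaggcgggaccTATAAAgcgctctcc
Stox1: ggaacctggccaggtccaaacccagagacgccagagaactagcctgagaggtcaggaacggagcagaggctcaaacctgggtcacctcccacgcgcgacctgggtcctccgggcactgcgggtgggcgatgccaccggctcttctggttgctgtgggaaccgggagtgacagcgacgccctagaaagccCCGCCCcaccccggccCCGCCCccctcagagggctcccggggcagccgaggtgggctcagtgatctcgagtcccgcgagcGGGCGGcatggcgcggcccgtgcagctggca
Epm2a: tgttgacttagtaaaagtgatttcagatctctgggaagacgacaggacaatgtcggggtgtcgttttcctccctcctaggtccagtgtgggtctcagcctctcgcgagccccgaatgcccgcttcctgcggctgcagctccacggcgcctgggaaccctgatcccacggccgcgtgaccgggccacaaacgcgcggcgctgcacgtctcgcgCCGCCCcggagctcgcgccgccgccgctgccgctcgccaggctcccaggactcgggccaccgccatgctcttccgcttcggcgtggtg
Arap2: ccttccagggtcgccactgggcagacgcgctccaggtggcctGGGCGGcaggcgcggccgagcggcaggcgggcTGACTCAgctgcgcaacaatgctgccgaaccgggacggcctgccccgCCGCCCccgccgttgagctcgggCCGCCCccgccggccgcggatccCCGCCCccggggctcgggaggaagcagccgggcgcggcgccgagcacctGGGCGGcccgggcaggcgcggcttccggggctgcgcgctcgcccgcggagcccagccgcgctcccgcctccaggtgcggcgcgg

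Each of the 4 windows held GGGCGG on at least 1 strand, and 35.7% of all 32851 promoter windows did. It occurred once in Epm2a and 5 times in Arap2. The GC content was 65.7% in Ddit4l, 70.3% in Stox1, 67.3% in Epm2a and 81.7% in Arap2, against a median of 52.7% over all windows, and CG dinucleotides numbered 14, 25, 35 and 47 against a median of 7. TATAAA, the letters of the TATA box, was found in Ddit4l only among the 4 (13.6% of all windows hold it). It lay 35 bases downstream of the RefSeq start, not upstream. The whole Ddit4l window lies inside the gene span given above, after its first base. TGANTCA was found in Arap2 only, 176 bases upstream (7.81%). The letters searched on both strands also included the E-box CACGTG (7.15% of windows), CCAAT (37.4%) and TGGAAA (21.4%), the core of the site bound by the osmotic-stress factor NFAT5. None of these was in any of the 4 windows.

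Levels of the 4 genes in tbGFP-negative cells were higher at 6 h than at 0 h in both libraries. Ddit4l was at 8.21 and 6.02 CPM at 0 h (22 and 53 counts) and at 78.8 and 63.6 CPM at 6 h (470 and 306 counts). The ranges did not overlap, and the mean went from 7.12 ± 1.55 to 71.2 ± 10.8 CPM (SD, n = 2), a fitted log2 difference of 3.38 ± 0.25 (SE). Stox1 was close to the limit of detection at 0 h, with 1 and 7 counts (0.373 and 0.795 CPM), and reached 53 and 40 counts (8.89 and 8.32 CPM) at 6 h. Its ratio of summed counts was 12.4, with an exact 95% interval of 6.04 to 29.6 that covers counting error only. The fitted log2 difference was 3.61 ± 0.38.

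Epm2a differed less steeply in the negative fraction, going from 2.24 and 4.32 CPM (6 and 38 counts) to 14.4 and 15.2 CPM (86 and 73 counts), a log2 difference of 2.02 ± 0.26. Arap2 went from 10.8 and 18.6 CPM (29 and 164 counts) to 39.6 and 49.5 CPM (236 and 238 counts), a log2 difference of 1.54 ± 0.26. All 4 members were among the 625 genes, 3.22% of those tested, that were higher at 6 h in negative cells at an adjusted p under 0.05. This comparison is 1 side of the one that chose them, so nothing is read from that count. Arap2 was not past that threshold without replicate 1 at 0 h (1.25, adjusted p = 0.0538) or without replicate 2 at 6 h (1.28, adjusted p = 0.0605), in edgeR's quasi-likelihood test.

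**Figure D1:**
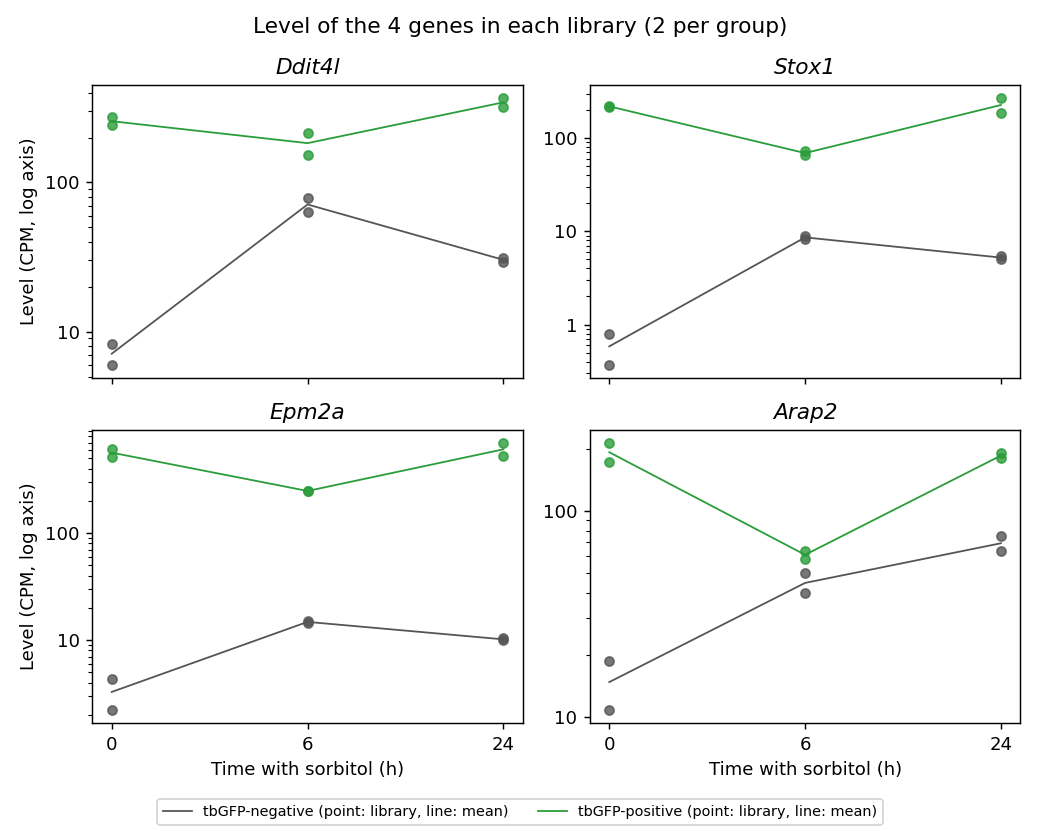
Level of each gene in CPM (log axis, a separate scale in each panel) in the 2 libraries of each group, against hours with sorbitol; points are libraries and lines join group means. In each panel the tbGFP-negative points rise from 0 to 6 h while the tbGFP-positive points at 6 h lie below those at 0 h, and at each time the positive points lie above the negative ones.

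In tbGFP-positive cells the same 6 h went the other way. Stox1 stood at 214 and 223 CPM at 0 h and at 72.4 and 65.5 CPM at 6 h, a log2 difference of -1.66 ± 0.22. Epm2a stood at 518 and 611 CPM and then at 246 and 249 CPM (-1.19 ± 0.20), and Arap2 at 212 and 172 CPM and then at 64 and 58 CPM (-1.66 ± 0.24). None of these ranges overlapped between 0 and 6 h. Ddit4l differed from the other 3 members in the size of this change: it stood at 242 and 273 CPM at 0 h and at 214 and 153 CPM at 6 h, a log2 difference of -0.49 ± 0.21. Stox1, Epm2a and Arap2 were among the 728 genes (3.76% of those tested) that were lower in positive cells at 6 h. This is the other side of the comparison that chose them, so nothing is read from that count. Ddit4l was not among the 728, except without replicate 1 of the positive cells at 6 h (-0.85). The 3 calls rested on the spread shared by all 12 libraries: fitted on the 4 libraries of the 2 groups alone, their adjusted p-values were 0.126, 0.174 and 0.135.

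The value that chose the members is the positive change minus the negative change over those 6 h. It was -5.28 ± 0.43 on the log2 scale for Stox1, -3.87 ± 0.32 for Ddit4l, -3.21 ± 0.33 for Epm2a and -3.19 ± 0.35 for Arap2, and by p-value these were the genes ranked 1, 2, 3 and 6 of the 19384 tested. The fit placed 33 genes (0.17%) past the threshold of 0.05, all with a negative value and none with a positive one, and 2586 genes had an unadjusted p under 0.05, 578 of them with a positive value. DESeq2 placed 267 genes past the threshold, 56 of them with a positive value. Of the 33, 23 were higher at 6 h in negative cells, 18 were lower at 6 h in positive cells and 8 were both; Stox1, Epm2a and Arap2 were among these 8. For 6 of the 33 neither positive library at 6 h had a count, and for 5 neither negative library at 0 h had one; all 4 members had counts in each of the 12 libraries.

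Just inside the threshold were Cnbp (-8.15 ± 1.43), Gm5543 (-8.01 ± 1.42) and Gm44669 (-7.74 ± 1.39). Just outside it were Ddit4 (-2.10 ± 0.40), the paralog of Ddit4l, with Gm5662 (-1.52 ± 0.29), which is 1 of the 16 markers of 2-cell-like cells, and Wrap73 (-9.44 ± 1.79). How far the 4 members lay past the threshold was set by the choice.

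**Figure D2:**
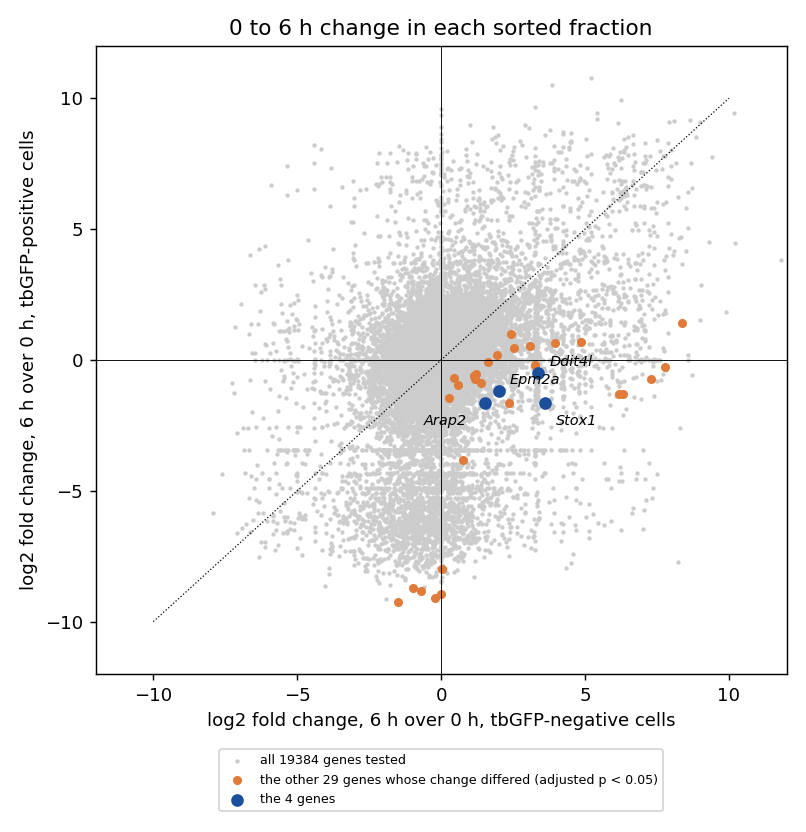
Log2 fold change from 0 to 6 h in tbGFP-negative cells (horizontal) and tbGFP-positive cells (vertical) for all 19384 genes tested; orange points are the other 29 of the 33 genes whose change differed between fractions, blue points the 4 genes, and the dotted line marks equal change. The 4 genes lie to the right of 0 and below it, from 1.54 to 3.61 in negative cells and from -1.66 to -0.49 in positive cells.

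With a higher negative and a lower positive level, the gap between the fractions was narrower at 6 h. Ddit4l in negative cells amounted to 2.77% of the positive level at 0 h and 38.8% at 6 h. For Stox1 the shares were 0.267% and 12.5%, for Epm2a 0.58% and 5.98%, and for Arap2 7.67% and 73.0%. Arap2 came nearest to equal levels, with 39.6 and 49.5 CPM in negative and 64 and 58 CPM in positive cells, which did not overlap but gave a log2 difference of only 0.45 ± 0.24, not past the threshold. The gain in negative cells was smaller in CPM than the loss in positive cells for each of the 4: Ddit4l gained 64.1 CPM in negative cells and fell by 73.8 CPM in positive cells. The gain was 8.02 CPM for Stox1, which fell by 149 CPM in positive cells, and 11.5 CPM for Epm2a, which fell by 317 CPM. Arap2 gained 29.8 CPM and fell by 131 CPM.

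Genes of the 2-cell program are given beside these shares. Zscan4a to Zscan4f, summed, stood in negative cells at 0.0479% of their positive level at 0 h and at 0.15% at 6 h, and the highest of the 16 markers at 6 h was Duxf3 with 0.856%. Of the 16 markers 4, Zscan4e, Zfp352, Tcstv1 and Tcstv3, had no counts in the negative libraries at 6 h. Fitted on only the negative libraries at 0 and 6 h, 7 of the 16 reached the count filter and 3 were higher at 6 h. The other markers passed the main filter through other libraries, so their share is not set on equal terms with that of all genes. In the main fit 5 of 16 rose in negative cells between 0 and 6 h in edgeR's test, where 3.22% of all genes tested did. These 5 include Usp17lc (0 counts at 0 h, 11 at 6 h) and Duxf3 (2 and 23), both near the limit of detection. The number of markers called there was lower when replicate 1 of the negative cells at 0 h, or either of those at 6 h, was left out. In the difference between fractions 2 of the 16 were called, both below 0, where 0.17% of all genes tested were called. These were Zscan4d (-1.91 ± 0.27, edgeR, adjusted p = 0.00939) and Gm8300 (-1.72 ± 0.26, adjusted p = 0.0127). The median of the 16 was -1.48, against -0.25 over all genes tested. At an unadjusted p under 0.05, 9 were below 0 and 0 above. With library totals alone 0 were called, and 0 in the fit on only the libraries of the groups compared. DESeq2 called 4 below 0, and the fit with no filter on low counts called 5. The count also moved in both directions when single libraries were left out. The part of the 2-cell program in the members' 6 h levels was not tested. In bulk libraries fewer cells that express a gene and less RNA per cell cannot be told apart.

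**Figure D3:**
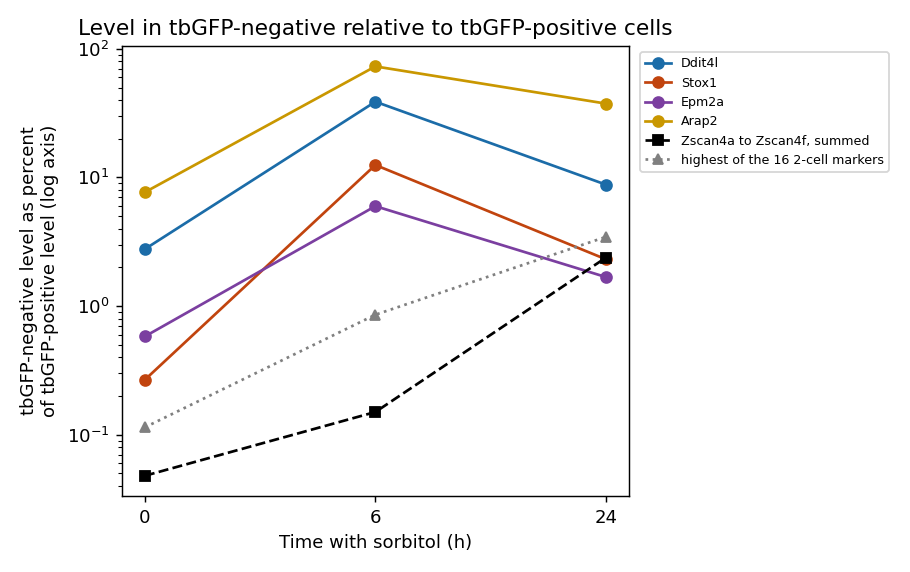
Mean level in tbGFP-negative cells as a percent of the mean level in tbGFP-positive cells (log axis) at 0, 6 and 24 h with sorbitol, for the 4 genes, for the sum of Zscan4a to Zscan4f and for the highest of the 16 markers of 2-cell-like cells. At 0 and 6 h the 4 genes lie above both marker lines, and at 24 h Stox1 (2.31%) and Epm2a (1.68%) lie at or below the Zscan4 sum (2.38%) while Ddit4l (8.79%) and Arap2 (37.5%) lie above it.

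At 24 h, in 4 libraries whose levels were not part of the difference that chose the members, though they entered its fit through the shared filter, scaling and spread, all 4 genes were higher in tbGFP-positive than in tbGFP-negative cells. Epm2a stood at 689 and 524 CPM in positive and 9.93 and 10.4 CPM in negative cells, a log2 difference of 5.90 ± 0.24, or 59.6-fold (edgeR quasi-likelihood test, adjusted p = 3.25e-10). Stox1 stood at 267 and 185 CPM against 5.38 and 5.07 CPM, a log2 difference of 5.43 ± 0.27, or 43.0-fold (adjusted p = 1.39e-09). No library of the negative fraction reached the positive range for either gene.

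Ddit4l at 24 h stood at 367 and 322 CPM in positive and 29.4 and 31.2 CPM in negative cells, a log2 difference of 3.51 ± 0.23, or 11.4-fold (adjusted p = 2.26e-08). The smallest gap was that of Arap2, with 189.9 and 180.1 CPM against 75.1 and 63.7 CPM, a log2 difference of 1.41 ± 0.24, or 2.66-fold (adjusted p = 0.000907). Again the ranges did not overlap. The 4 of 4 members higher in positive cells compare with 5.35% of the genes tested (1037 genes), and with 16 of the 16 markers of 2-cell-like cells (median log2 difference 5.33, against -0.05 over all genes tested). Of the 33 genes whose 0 to 6 h change differed between fractions, 25 were already higher in positive cells at 0 h. All 4 members were among these 25. The 4 of 4 at 24 h is therefore not independent of the choice. When 1 of the 4 libraries at 24 h was left out, the members kept their direction and an adjusted p under 0.05, the highest being 0.0232 for Arap2 without replicate 2 of the negative cells.

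From 6 to 24 h the means of the members in the negative fraction went in different directions. Ddit4l in negative cells went from a mean of 71.2 ± 10.8 to 30.3 ± 1.30 CPM (SD, n = 2), Stox1 from 8.60 ± 0.405 to 5.23 ± 0.214 and Epm2a from 14.8 ± 0.534 to 10.2 ± 0.336, so that all 3 lay between their 0 h and 6 h levels. For Arap2 the mean was 44.5 ± 7 CPM at 6 h and 69.4 ± 8.06 CPM at 24 h, the highest of its 3 times in negative cells. The fitted log2 differences between 24 and 6 h were -1.23 ± 0.21, -0.72 ± 0.26, -0.54 ± 0.22 and 0.64 ± 0.24 in the order Ddit4l, Stox1, Epm2a and Arap2. They share the 6 h libraries with the choice of the members, which favoured high negative levels at 6 h, and are given with no test.

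In positive cells the 24 h levels were near those of 0 h. Stox1 had 226 ± 57.5 against 218 ± 6.65 CPM, Epm2a 606 ± 117 against 565 ± 65.8, and Arap2 185 ± 6.96 against 192 ± 28.3 (SD, n = 2), and the libraries of the 2 times overlapped for each. Ddit4l stood higher at 24 h, with 345 ± 31.4 against 257 ± 21.9 CPM and no overlap, but the log2 difference of 0.42 ± 0.20 was not past the threshold. The 6 h mean was the lowest of the positive course for each of the 4 genes. The choice of the members favoured a positive level that was lower at 6 h than at 0 h, so nothing is read from this course.

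The markers of 2-cell-like cells in negative cells were higher at 24 h than at 6 h, and their values stand beside those of the members. The Zscan4 sum in negative cells was 2.38% of its positive level at 24 h, with 1.41 to 3.45% over the 16 markers. At 2.38% of their positive level, Stox1 and Epm2a would have stood at 5.37 and 14.4 CPM in negative cells, and they measured 5.23 and 10.2 CPM. Ddit4l would have stood at 8.19 and Arap2 at 4.4 CPM, and they measured 30.3 and 69.4 CPM. The part of the 2-cell program in the negative cells' 24 h levels of the members was not tested.

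Ranked over the 6 groups, Ddit4l, Stox1 and Epm2a had the same order: negative at 0 h, negative at 24 h, negative at 6 h, positive at 6 h, positive at 0 h and positive at 24 h. For Ddit4l no neighbouring groups overlapped. For Stox1 and Epm2a the positive libraries at 0 and 24 h overlapped, and no other neighbours did. Arap2 ran negative at 0 h, negative at 6 h, positive at 6 h, negative at 24 h, positive at 24 h and positive at 0 h. In it the positive libraries at 6 h overlapped with the negative ones at 24 h, and the positive libraries at 24 h with those at 0 h.

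Genes with the most similar course were sought as a description, by the Pearson correlation of log2 CPM over the 12 libraries among 16936 tested genes with a mean of at least 1 CPM. The 12 points share the sort into fractions, which differ in all 4 members. The members correlated with each other at 0.863 (Epm2a and Arap2) to 0.989 (Stox1 and Epm2a). Stox1 was nearest to 9530059O14Rik (0.997), Epm2a, AU019990 (0.987), Speer4cos (0.984) and Gm5543 (0.981). For Ddit4l the nearest were Stox1 (0.975), 9530059O14Rik (0.974), AU019990 (0.971), Neto2 (0.966) and Speer4cos (0.960).

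Epm2a was nearest to Sp110 (0.991), Gm12183 (0.991), Speer4cos (0.990), Chrm3 (0.989) and Stox1. Arap2 had lower values and none of the same names, with Xpnpep1 (0.955), Gm48986 (0.950), Cidea (0.947), Tcaf1 (0.944) and Ints12 (0.938). Xpnpep1 showed the course of Arap2 at a lower level: 2.42, 3.65 and 9.91 CPM in negative cells and 51.9, 12.6 and 53.5 CPM in positive cells at 0, 6 and 24 h. 9530059O14Rik had no counts in negative cells at 0 h and stood at 1.63 and 1.02 CPM there at 6 and 24 h, against 27.0, 10.9 and 24.5 CPM in positive cells.

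Other brakes on mTORC1 were followed beside Ddit4l in a list of 20 genes, 19 of them tested. Ddit4, the paralog, rose in negative cells from 121 and 115 CPM at 0 h to 624 and 686 CPM at 6 h, a log2 fold change of 2.47 ± 0.30 (edgeR, adjusted p = 0.000236). In positive cells it stood at 480.1 and 289 CPM and then at 341 and 655 CPM, which overlapped (0.37 ± 0.28, adjusted p = 0.437), with a value of -0.26 without replicate 2 at 6 h and -0.04 without replicate 2 at 0 h. The difference between fractions missed the threshold (adjusted p = 0.0568, from 5.35e-13 to 0.281 over the alternatives). At 24 h Ddit4 was again higher in positive cells, with 955 and 618 CPM against 242 and 246 CPM (1.69 ± 0.29, adjusted p = 0.00109).

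**Figure D4:**
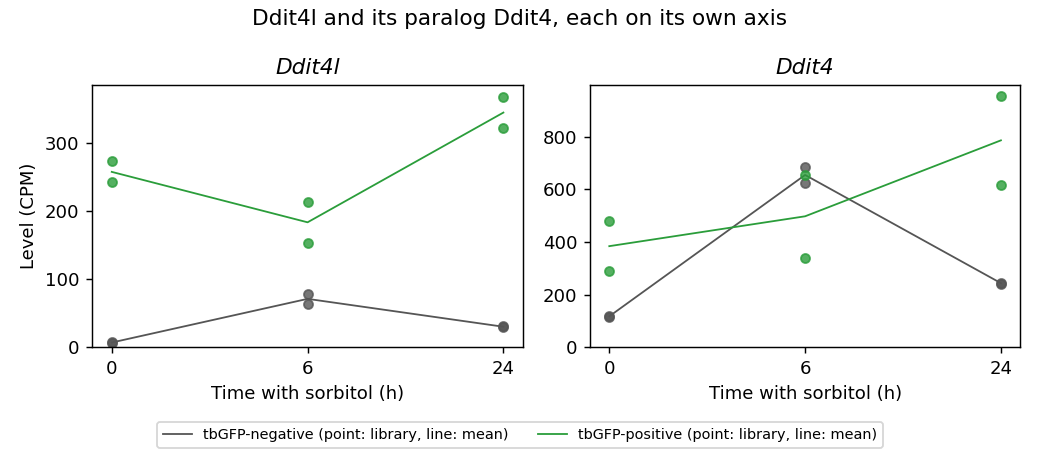
Level in CPM (linear axes starting at 0, a separate scale in each panel) of Ddit4l and its paralog Ddit4 in each library against hours with sorbitol; lines join group means. In negative cells both rise from 0 to 6 h and stand lower at 24 h, and at 6 h the libraries of the 2 fractions overlap for Ddit4 but not for Ddit4l.

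Sesn2, another stress-induced inhibitor of mTORC1, was the second gene of that list higher at 6 h in negative cells, from 510.1 ± 26.3 to 1987 ± 338 CPM (1.96 ± 0.42, edgeR, adjusted p = 0.0213). That call was lost without any 1 of the 4 libraries compared (adjusted p from 0.0705 to 0.165) and with no filter on low counts (0.279). So 2 of 19 were higher, against 3.22% of all genes tested, and none lower there (2 higher and 3 lower at an unadjusted p under 0.05, 2 and 2 by DESeq2), with a median log2 fold change of -0.15 against 0.05 over all genes tested. At 24 h Ddit4 and Prkaa2, a catalytic subunit of AMP-activated kinase, were the 2 of 19 that were higher in positive cells, against 5.35% of all genes tested, and 4 were without either positive library at 6 h. Prkaa2 (1.02 ± 0.26, adjusted p = 0.0281) was not past the threshold without replicate 1 or replicate 2 of the negative cells at 24 h (adjusted p 0.154 and 0.165), without replicate 2 of the positive cells (0.203), or with other scalings (0.103 and 0.245). No gene of the list changed in positive cells between 0 and 6 h or differed between the fractions in that change in edgeR's test (1 lower at an unadjusted p under 0.05 in each, 0 and 1 by DESeq2). Without replicate 1 of the positive cells at 6 h, 1 was higher and 3 were lower in positive cells and 2 were below 0 in the difference, and without replicate 2 the counts were 1 and 2 in positive cells and 1 above and 2 below 0 in the difference. Without either, 2 were also lower in negative cells.

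The subunits and activators of the mTOR complexes (18 genes, 14 tested) gave no call in any of the 4 comparisons in edgeR's test. At an unadjusted p under 0.05, 1 was lower in positive cells at 6 h and 1 in the difference between fractions, and DESeq2 called 1 lower in negative and 1 in positive cells at 6 h. Their median log2 fold change was -0.17 in negative and -0.19 in positive cells at 6 h. Without either positive library at 6 h, 3 were lower in positive cells at 6 h, and 1 was without either negative library at 6 h. In the difference between fractions, 1 was below 0 without replicate 2 of the positive cells at 6 h.

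Glycogen metabolism was followed beside Epm2a in a list of 28 genes, 19 of them tested, and edgeR's test called none in any of the 4 comparisons. At an unadjusted p under 0.05 there were 2 higher in negative and 3 higher and 2 lower in positive cells at 6 h, 2 above 0 in the difference between fractions and 1 higher in positive cells at 24 h, and DESeq2 called 2 higher in negative and 2 higher and 2 lower in positive cells at 6 h. Without either positive library at 6 h, 2 were higher in negative cells and 2 higher in positive cells at 6 h, with 2 lower in the latter without replicate 1 and 1 without replicate 2. In the difference, 1 was below 0 without replicate 1, and 2 were above and 1 below 0 without replicate 2. Nhlrc1, the gene of laforin's partner malin, stood at 9.87 ± 0.302, 5.72 ± 1.92 and 18.9 ± 0.147 CPM in negative cells at 0, 6 and 24 h and at 11 ± 2.28, 6.63 ± 2.15 and 15.9 ± 0.638 CPM in positive cells (SD, n = 2).

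GTPase-activating proteins for ARFs, the ARFs and RHOA made up the list for Arap2, with 24 of 29 genes tested. EdgeR's test called none in the 4 comparisons. Unadjusted p-values under 0.05 were found for 1 higher and 2 lower in negative cells at 6 h, 1 and 6 in positive cells at 6 h, and 1 and 1 both in the difference between fractions and at 24 h. DESeq2 called 1 lower in negative cells at 6 h and none in the other comparisons. Without replicate 1 of the positive cells at 6 h, 4 were lower in positive cells and 3 were below 0 in the difference, and without replicate 2 there was 1 in each direction in both. Without either, 1 was also lower in negative cells at 6 h and 1 higher in positive cells at 24 h. The median log2 fold change was -0.76 in positive cells at 6 h, against -0.05 over all genes tested, and -0.16 in negative cells. Arap1, the closest relative that could be tested, had 23, 67 and 52 counts in negative cells at 0, 6 and 24 h and 17, 6 and 32 in positive cells, summed over 2 libraries. Arap3 had at most 6 counts in a group and was not tested.

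Of the storkhead list, 2 of 3 genes were tested and edgeR's test called none (1 higher in negative cells at 6 h at an unadjusted p under 0.05, none by DESeq2). Without either positive library at 6 h, 1 was called higher in negative cells, and without replicate 2 of them 1 was lower in positive cells and in the difference. Stox2, the paralog of Stox1, stood at 2.60 ± 0.504 CPM in negative cells at 0 h, at 16.3 ± 3.12 CPM at 6 h and at 4.89 ± 0.101 CPM at 24 h (SD, n = 2). In positive cells it stood at 2.12 ± 1.60, 1.99 ± 2.81 and 4.74 ± 0.173 CPM. The difference between 0 and 6 h in negative cells did not pass the test (2.61 ± 0.96, adjusted p = 0.161), and in positive cells the 28 counts at 6 h were spread unevenly over the 2 libraries.

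General stress lists gave the setting of these changes. Of 14 tested genes of the osmotic response, 4 rose at 6 h in negative cells, where 3.22% of all genes tested were higher. In positive cells 4 rose, where 2.14% of all genes tested were higher. The list's median log2 fold changes were 0.12 in negative and 0.96 in positive cells, against 0.05 and -0.05 over all genes tested. Slc5a3, which imports the osmolyte myo-inositol, rose in both (3.65 ± 0.25 and 3.06 ± 0.24, edgeR, adjusted p = 1.72e-06 and 1.14e-05), as did the amino acid transporter gene Slc38a2 (1.86 ± 0.17 and 1.76 ± 0.17, adjusted p = 1.91e-05 and 8.81e-05). Akr1b3, which encodes the sorbitol-forming aldose reductase, was called in both as well, but lost the call in 8 of 21 alternatives in negative cells. Among these were the fits without any 1 of the 4 libraries compared or without replicate 2 of the negative cells at 24 h. Its log2 fold change in negative cells ran from 0.71 to 1.18 over the alternatives. In positive cells the call was lost in 2 of 20. Wnk1, a kinase that regulates cell volume, was called in positive cells (1.29 ± 0.30, adjusted p = 0.0254), and lost the call in 10 of 20 alternatives (adjusted p up to 0.423). In the fit on the libraries of the 2 groups alone none of the 4 calls in positive cells remained.

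Hspa1b, a heat-shock chaperone gene, was the gene of this list whose change differed between fractions. It rose in negative cells from 6.76 ± 1.53 to 102 ± 2.24 CPM (3.96 ± 0.28, adjusted p = 1.92e-06) and the difference between fractions was -3.32 ± 0.35 (edgeR, adjusted p = 0.000503). In positive cells its mean was higher at 6 h, with 122 ± 25.7 CPM at 0 h and 191 ± 46.7 CPM at 6 h (0.64 ± 0.23, edgeR, adjusted p = 0.106). The means of the 4 members were lower there, though that of Ddit4l was not past the threshold either (-0.49 ± 0.21). At 24 h Hspa1b was higher in positive cells, with 94.7 ± 8.84 against 35.6 ± 1.90 CPM (1.41 ± 0.23, edgeR, adjusted p = 0.000822).

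Of 20 tested targets of p53, 12 rose at 6 h in negative cells, where 3.22% of all genes tested did, and 5 in positive cells, where 2.14% did, with medians of 2.33 and 1.10 on the log2 scale. The first count was 5 without either negative library at 0 h and 6 without either at 6 h, and the second was 0 in the fit on the libraries of the 2 groups alone, 2 without replicate 2 of the positive cells at 0 h and 13 without replicate 1 of the positive cells at 6 h. In negative cells Plk2 rose by 6.15 ± 0.58 and Cdkn1a by 6.11 ± 0.94, though Cdkn1a had only 6 counts at 0 h and its value ran from 5.61 to 10.64 without replicate 1 or 2 of the negative cells at 0 h. Mdm2, which encodes the ligase that degrades p53, rose there by 3.40 ± 0.48 and the pro-apoptotic gene Bbc3 by 3.41 ± 0.63 (edgeR, adjusted p from 0.000171 to 0.0056). Bbc3 lost its call without either negative library at 0 h (adjusted p = 0.11 and 0.103) or without replicate 2 of those at 6 h (0.0698). None of the 20 differed between fractions in the change by edgeR's test (7 below 0 at an unadjusted p under 0.05, 2 by DESeq2), nor at 24 h (1 higher and 1 lower, 0 by DESeq2). Without replicate 1 of the positive cells at 6 h 5 were below 0 in the difference and without replicate 2 there were 12, and without either 2 were higher in positive cells at 24 h.

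The counts of the members came from few transcripts. Ddit4l-201 held 95.3% of the counts of Ddit4l, Stox1-202 98.3% of those of Stox1, Epm2a-201 100.0% of those of Epm2a and Arap2-201 94.0% of those of Arap2. The counts were deposited per transcript, and 4 transcripts of Stox1, Epm2a and Arap2 had 0 counts in all libraries. Of these, 3 have no exon base of their own and the other has 7 such bases. Genes that overlap the members held few counts: at most 46 per library for Gm43753 within Arap2 on the same strand, and at most 16 for the pseudogenes on the opposite strand of Stox1 and Epm2a. No annotated gene overlapped Ddit4l.

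**Figure D5:**
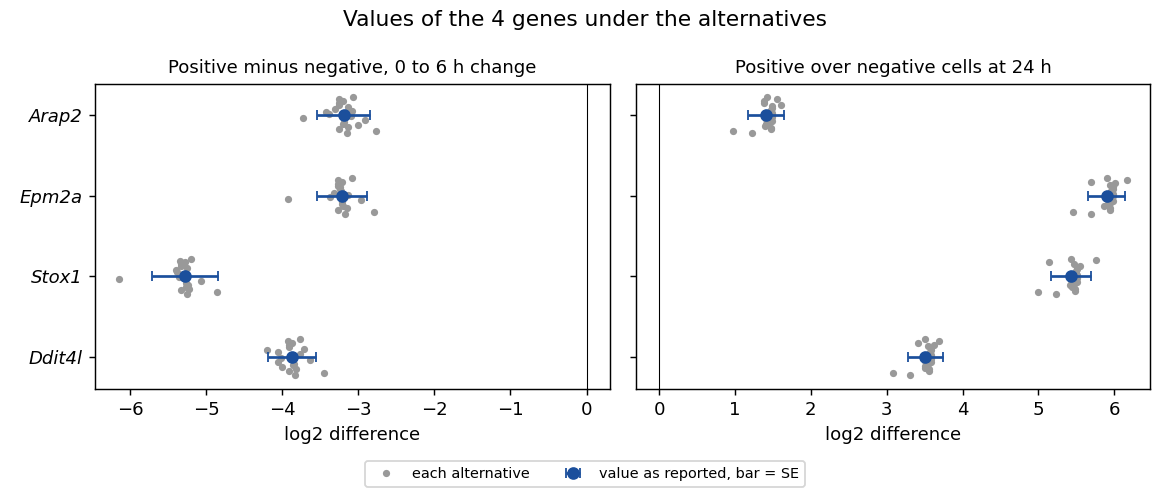
Log2 difference for each of the 4 genes under each alternative (gray points) and as reported (blue, bar = SE): left, positive minus negative change from 0 to 6 h, which chose the genes; right, positive over negative cells at 24 h. All points keep their side of 0, with Arap2 at 24 h nearest to it at 0.98 to 1.61.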

How the data were processed

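RNA was measured in 12 libraries of sorted mouse embryonic stem cells. Libraries were made with a stranded total RNA kit, per the labels' protocols; FastQC, HISAT2, featureCounts and DESeq2 and the build mm10 are named in the submitters' processing notes, without versions. Per the file headers, what was deposited are raw counts for each of 142446 Ensembl transcripts. How strand and reads shared by transcripts were handled is not given in the sources used here, so levels are compared between libraries, not between genes.

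Transcript counts were summed per gene with GENCODE M21 (GRCm38); 141536 transcripts matched, and the other 910 (0.0606% to 0.0903% of counts) were left out. The design assumed gene counts. Genes reaching 10 counts in 2 or more libraries were fitted with edgeR 4.0.16 (R 4.3.3; TMM factors, robust quasi-likelihood F test, a mean per group over all 12 libraries), with Benjamini-Hochberg adjustment over 19384 genes and a threshold of 0.05. CPM are TMM-scaled over the tested genes. The SE is the absolute log2 fold change divided by the square root of F. The common dispersion was 0.208. The fit was tested on simulated data with 200 changed genes. There the 24 h comparison recovered 18% of 2-fold, 82% of 4-fold and 96% of 8-fold changes, so most 2-fold changes were missed. Alternatives covered scaling, the filter, DESeq2 1.42.0, transcripts, the libraries fitted and a replicate block. Groups follow GEO's labels, and 0 columns were unmapped.

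The members, lists and tests were chosen with earlier results of these data known. The text names the members, their paralogs or partners, up to 4 called genes per list and comparison, the 3 genes on each side of the threshold and the 5 most similar genes per member. Intervals cover counting error only. Promoters are from RefSeq; motifs were searched on both strands.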

Additional observations from a re-analysis of the deposited data

Results flagged for a closer look

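Results for 5 genes were set apart because the 0 to 6 h change differed between the sorted fractions (positive change minus negative change, log2). The first 4 are the members, for which this value made the choice and is not a finding: Ddit4l -3.87, Stox1 -5.28, Epm2a -3.21 and Arap2 -3.19. The fifth is Hspa1b, a heat-shock chaperone gene of the osmotic list, at -3.32 (edgeR quasi-likelihood test, adjusted p = 0.000503). It stood at 6.76 CPM at 0 h and 102 CPM at 6 h in negative cells, and at 122 and 191 CPM in positive cells.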

How the results depend on the processing

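The 24 h differences of the 4 members kept direction and call in 21 of 21 alternatives each, at 3.08 to 3.69 for Ddit4l, 4.99 to 5.76 for Stox1, 5.46 to 6.17 for Epm2a and 0.98 to 1.61 for Arap2 (log2). Counts of calls moved more, and the cause was not tested. They went from 1143 to 1802 in positive cells at 6 h and from 33 to 276 for the difference between fractions with no filter on low counts. With only the libraries of the groups compared they were 2257 (main 1059) at 24 h, 3944 (main 860) in negative and 4 in positive cells at 6 h, and 9 for the difference. Without both positive libraries at 6 h they were 1742 at 24 h and 2543 in negative cells at 6 h. DESeq2 gave 1417 in negative and 2372 in positive cells at 6 h and 267 for the difference. Leaving out 1 library gave 719 to 1775 at 24 h, 152 to 2532 in negative and 483 to 4008 in positive cells at 6 h, and 10 to 2167 for the difference; the highest counts came without a positive library at 6 h. Library totals alone gave 884 higher and 424 lower at 24 h (main 1037 and 22), 339 and 571 in negative cells at 6 h (main 625 and 235), and 6 above and 18 below 0 for the difference (main 0 and 33), with a median over all genes of -0.478 at 24 h (main -0.053), -0.222 (main 0.05) and 0.154 (main -0.249). Ddit4 in positive cells at 6 h reversed to -0.04 without replicate 2 of the positive cells at 0 h and -0.26 without replicate 2 at 6 h, within a range of -0.26 to 0.70 over libraries left out. Same-numbered libraries did not deviate together (r from -0.018 to 0.015), and a replicate block gave 1014, 754, 771 and 32 calls and changed no call of a member. Stox1 in negative cells at 0 h, at 1 and 7 counts, is limited by depth.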
